A study of Mus musculus with 18 samples.

Results

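Whole lungs of A/J mice that had inhaled ovalbumin were compared with whole lungs of A/J mice that had inhaled PBS. The comparison rests on 6 of the 18 arrays of a study of allergic airway disease, chosen by their sample titles alone: 3 titled as ovalbumin-challenged and 3 as PBS-challenged A/J lung, which the titles call biological replicates. All 6 animals were males of 16 weeks. All were sensitized with 3 weekly intraperitoneal injections of 100 µg ovalbumin in the adjuvant alum (ovalbumin, from egg white, stands in for an allergen), so the PBS animals were sensitized mice that met no allergen in the air and not untreated mice. About a week after the last injection the ovalbumin group breathed a 1% ovalbumin aerosol for 30 min on each of 3 consecutive days, and the PBS group breathed PBS for the same time. The other 12 arrays hold lungs of A/J mice injected with resiquimod around the ovalbumin aerosols, and the same 3 treatments in C57BL/6 mice. They enter here through the shared estimate of the spread, the choice of a probe set for each gene, the rule for transcripts of other tissues and 1 comparison of strains. The study is an acute model of 1 sex and age, and the time from the last aerosol to the removal of the lungs is not given in the sources used here.

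In allergic airway disease the cytokines interleukin-4 and interleukin-13 act on airway epithelium and macrophages through a shared receptor chain and the transcription factor STAT6. Epithelial cells then turn into mucus-filled goblet cells, macrophages take on the alternatively activated state, with chitinase-like proteins and arginase, and chemokines of the eotaxin family draw eosinophils from the blood. A/J is an inbred strain known for strong airway responsiveness, and the data ask which of its lung transcripts differ once the sensitized animal breathes the allergen.

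Each array measures 45037 probe sets besides its controls, of which 18194 genes were each given 1 representative probe set. Values are log2 expression without a unit. A change is the difference of group means, ovalbumin minus PBS, with n = 3 arrays a group, given ± SE. The SE comes from the fit to all 18 arrays. It pools the spread within all groups of the series and is not the spread of the A/J arrays alone. A gene is said to rise or fall only where limma, a linear model fitted to all probe sets, gave a Benjamini-Hochberg adjusted p under 0.05. The lowest 25% of all values lie under 3.33, where signals are weakest. The files hold no detection call, so no fold is given for a gene whose PBS values lie near that level, and its change may be understated. The number of arrays limits the precision throughout, and limma's p-values rest on the same pooled spread, not on the A/J arrays alone. Arrays of the same A/J group resembled each other closely (Pearson r of 0.988 to 0.996, taken over probe sets, which are not independent of each other). The excess of 3′ over 5′ beta-actin signal, a sign of RNA integrity, was 0.384, 0.371 and 0.383 on the ovalbumin arrays and 0.366, 0.443 and 0.431 on the PBS arrays (log2, exact two-sided permutation p = 0.4, with 0.1 the smallest p that 3 against 3 arrays allow).

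Some of the 6 arrays carried transcripts characteristic of other tissues. An array is said to carry a list where at least 50% of its members lie 1 log2 unit or more above the lower quartile of that member over the 18 arrays. Genes of squamous epithelium, the keratinized lining of mouth and oesophagus (26 measured), averaged 6.61, 4.12 and 6.28 on ovalbumin arrays 1, 2 and 3, and 6.60, 4.10 and 4.11 on PBS arrays 1, 2 and 3. Ovalbumin 1, ovalbumin 3 and PBS 1 thus carried them, as did 8 of all 18 arrays. The keratin Krt13 was at 11.06, 3.59 and 10.68 in ovalbumin lungs and at 11.14, 3.21 and 3.43 in PBS lungs. Skeletal muscle genes (23 measured) averaged 8.18, 4.18 and 6.78 on the ovalbumin arrays and 7.06, 4.21 and 6.69 on the PBS arrays, so that 2 arrays of either group carried them. The same 4 arrays carried the cardiac muscle list, at 8.48 and 8.23 against 7.72 on ovalbumin 2, and at 8.49 and 8.45 against 7.45 on PBS 2. Liver genes (22 measured) averaged 5.76 on ovalbumin 1 and between 3.80 and 3.87 on the other 5 arrays, and the plasma protein gene Alb was at 10.06 on ovalbumin 1, against 3.74 to 4.51 elsewhere. Adipose genes were carried by PBS 3 alone (mean of 13 genes 7.22, against 5.92 to 6.77 on the other 5 arrays). Ovalbumin 2 and PBS 2 carried none of these lists, and thymus genes were carried by no array. No member of the squamous, skeletal muscle, cardiac muscle, liver or adipose lists was called in either direction. Genes such as Krt13 and Alb varied by several log2 units within a group, so 3 against 3 arrays could hardly give a call. The lack of calls therefore does not show that the groups were balanced. The list means differed, ovalbumin minus PBS, by 0.74 (squamous), 0.39 (skeletal muscle), 0.01 (cardiac muscle), 0.60 (liver) and −0.41 (adipose). The arrays that carry these lists are kept below, and the counts of gene lists without the squamous-carrying arrays are given beside each list. That fit leaves 1 ovalbumin array against 2 PBS arrays in A/J, and the lone array is assumed to vary like the other groups. With fewer arrays, a call lost there does not show that the change was smaller.

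**Figure D1:**
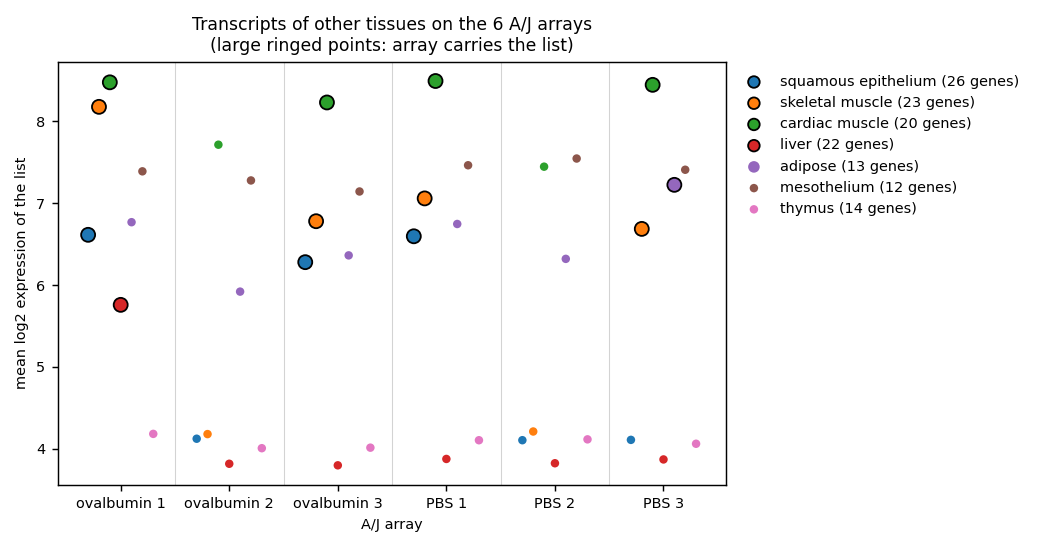
Mean log2 expression (vertical axis) of 7 lists of genes from other tissues on each of the 6 A/J arrays (horizontal axis, ovalbumin arrays left, PBS arrays right). Ringed points mark arrays that carry a list: ovalbumin 1, ovalbumin 3 and PBS 1 carry the squamous list, ovalbumin 1 alone carries the liver list, and ovalbumin 2 and PBS 2 carry none.

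Ovalbumin raised 582 genes (3.2% of the 18194 tested) and lowered 215 (1.18%) in A/J lungs, 797 in all (4.38%), which is 1419 of 45037 probe sets (3.15%). The rises were larger than the falls: 113 genes rose and 2 fell at least 2-fold, and the median change was 0.59 among genes that rose and −0.38 among those that fell, against −0.004 over all genes. All 3 ovalbumin values lay above all 3 PBS values in 2256 genes (12.4%) and below them in 2116 (11.6%). Counts of calls in every gene list below are to be read beside the 3.2% that rose and the 1.18% that fell. A list with 1 or 2 calls in a direction is not taken to have changed as a whole. Leaving out 1 array moved the number of risen genes by over 1.5 times only without ovalbumin 3 (331). The number of fallen genes was 88, 268 and 78 without ovalbumin 1, 2 and 3, and 125, 83 and 85 without PBS 1, 2 and 3. Without ovalbumin 2 both remaining ovalbumin arrays carry squamous transcripts. Whether these bear on the larger count was not tested. Without the arrays that carry squamous transcripts all 582 risen genes still changed above 0 and all 215 fallen genes below 0. The shared arrays fix these directions in part. With 1 ovalbumin array left, that fit cannot decide which rises or falls persist, and its calls are given at the close.

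**Figure D2:**
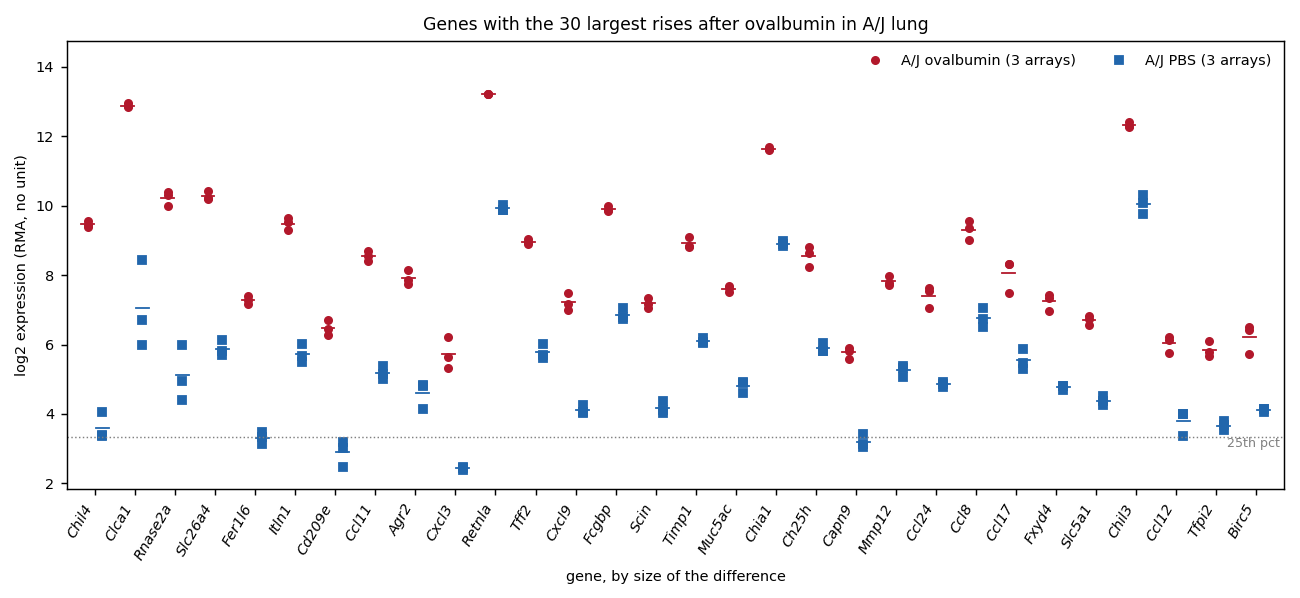
Log2 expression (vertical axis) of the 30 genes with the largest rises (horizontal axis, by size) on the 3 ovalbumin arrays (circles) and the 3 PBS arrays (squares), with group means as short lines and the 25th percentile of all values (3.33) dotted. In each gene the ovalbumin values lie above all PBS values. The PBS values of Chil4, Fer1l6, Cd209e, Cxcl3 and Capn9 lie near or under the dotted line.

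The mucus programme showed some of the largest rises. Clca1 (Entrez Gene 23844), a secreted protein that shapes airway mucus, was at 12.87, 12.95 and 12.83 in ovalbumin lungs, against 5.97, 6.72 and 8.43 in PBS lungs. The ovalbumin values were close together, while the PBS values spread over more than 2 log2 units, and the change of 5.85 ± 0.48 became 6.54 without PBS 3. Agr2 (Entrez Gene 23795), the endoplasmic reticulum chaperone needed to fold mucins, was at 7.85, 7.74 and 8.16 in ovalbumin lungs and at 4.14, 4.85 and 4.81 in PBS lungs (change 3.31 ± 0.29). Muc5ac (Entrez Gene 17833), the gel-forming mucin of goblet cells, was at 7.64, 7.50 and 7.68 in ovalbumin lungs and at 4.59, 4.93 and 4.89 in PBS lungs (change 2.81 ± 0.24). The trefoil peptide gene Tff2 rose by 3.18 ± 0.29, Fcgbp, a mucin-like binding protein of mucus, by 3.04 ± 0.17, the actin-severing gene Scin by 3.02 ± 0.24 and the lectin gene Itln1 by 3.76 ± 0.20. In the list of 20 mucus and goblet cell genes, 13 rose and none fell, with a median change of 1.13 beside −0.004 over all genes. The count was 13 in each fit that left out 1 A/J array, and 9 without the squamous-carrying arrays.

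Some enzymes that build mucin sugar chains rose. Of 26 genes of mucin glycosylation and the Golgi 7 rose and none fell (median change 0.13). Galnt6 and Galnt12, transferases that place the first sugar on mucins, rose by 0.96 ± 0.13 and 0.67 ± 0.11. Galnt6 averaged 5.76 ± 0.21 in ovalbumin lungs and 4.80 ± 0.17 in PBS lungs (SD, n = 3 each, without overlap), and neither of its other 2 probe sets was called (−0.04 and 0.40). Gfpt1, which starts the synthesis of amino sugars, rose by 0.52 ± 0.07, though none of its other 5 probe sets was called (−0.07 to 0.38). B3gnt7 changed by 0.58 ± 0.15 and lost its call without ovalbumin 1, 2 or 3 or PBS 1 or 3 (changes 0.48 to 0.67). The list count ran from 4 (without ovalbumin 1) to 6 in the fits that left out 1 array, and was 0 without the squamous-carrying arrays, where the list median was 0.23.

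Epithelial transporters changed in both directions, with 5 of 23 higher and 2 lower (median change 0.06). Slc26a4 (Entrez Gene 23985), the anion exchanger pendrin, was at 10.22, 10.20 and 10.42 in ovalbumin lungs, against 5.82, 6.12 and 5.70 in PBS lungs, a 21.1-fold difference (change 4.40 ± 0.21). Slc5a1, a sodium-glucose cotransporter, was at 6.74, 6.82 and 6.57 in ovalbumin lungs and at 4.51, 4.27 and 4.37 in PBS lungs (change 2.32 ± 0.15). The potassium channel gene Kcnj15 rose by 1.05 ± 0.13, the amino acid transporter gene Slc6a20a by 0.62 ± 0.11 and the carbonic anhydrase gene Car2 by 0.53 ± 0.11. The water channel gene Aqp1 fell by 0.50 and the sodium channel subunit gene Scnn1g by 0.40. Aqp1 was at 11.26, 11.30 and 10.63 in ovalbumin lungs, with ovalbumin 3 the lowest, and at 11.48, 11.61 and 11.60 in PBS lungs. Scnn1g lost its call without ovalbumin 1, ovalbumin 3 or PBS 2 (changes −0.40 to −0.32), and the number of fallen transporters was 3 without ovalbumin 2, 1 without ovalbumin 1, PBS 1 or PBS 3, and 0 without ovalbumin 3, PBS 2 or the squamous-carrying arrays. The risers numbered 2 without the squamous-carrying arrays. Fxyd4, which encodes a regulator of the sodium pump, was outside this list and rose by 2.48 ± 0.18 (7.33, 6.97 and 7.42 in ovalbumin lungs, against 4.81, 4.68 and 4.81 in PBS lungs). Fer1l6, a ferlin-family gene, rose by 3.96 ± 0.26, with PBS values of 3.12, 3.33 and 3.49, and Capn9, a calpain gene of the digestive tract, rose by 2.57 ± 0.15, with PBS values of 3.13, 3.06 and 3.43.

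Chitinase-like and macrophage genes rose together with the mucus genes. Chil4 (Entrez Gene 104183), whose product Ym2 resembles chitinases without cutting chitin, was at 9.45, 9.38 and 9.55 in ovalbumin lungs, against 3.36, 3.38 and 4.06 in PBS lungs (change 5.86 ± 0.40). Retnla (Entrez Gene 57262), the resistin-like protein of alternatively activated macrophages, was at 13.21 in each of the 3 ovalbumin lungs and at 10.03, 9.89 and 9.88 in PBS lungs (change 3.28 ± 0.13). The ovalbumin values lie near the top of the scale (highest value 14.03), so the change may be understated. Chia1 (Entrez Gene 81600), the acidic chitinase, rose by 2.73 ± 0.22, and Chil3, the protein Ym1, by 2.29 ± 0.11. Of 8 chitinase-like and resistin-like genes 6 rose (median change 1.67, 5 without the squamous-carrying arrays). Chil3 and Chil4 are near-identical genes on chromosome 3, and Rnase2a likewise belongs to a family of close copies, so their probe sets may read more than 1 gene.

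Of 21 genes of alternatively activated macrophages 13 rose and none fell (median change 1.35), and 8 rose without the squamous-carrying arrays. Rnase2a (Entrez Gene 93726), an eosinophil-associated ribonuclease, was at 10.39, 9.99 and 10.31 in ovalbumin lungs, against 4.96, 4.40 and 5.98 in PBS lungs, a 34.8-fold difference (change 5.12 ± 0.38). Rnase2a had the largest change of this list and is counted in the eosinophil list as well. Cd209e, a lectin of the DC-SIGN family, was at 6.44, 6.28 and 6.70 in ovalbumin lungs and at 3.19, 3.03 and 2.47 in PBS lungs (change 3.58 ± 0.21). The lectin genes Mgl2 and Mrc1, both markers of this state, rose by 1.67 ± 0.15 and 0.89 ± 0.12. Arg1, the arginase that competes for the substrate of nitric oxide synthase, was at 7.39, 5.95 and 6.86 in ovalbumin lungs and at 4.49, 3.74 and 5.33 in PBS lungs. The groups did not overlap, but the arrays of a group spread over more than 1 log2 unit, and the change of 2.21 ± 0.74 did not pass the test (adjusted p = 0.135). In arginine and polyamine metabolism 4 of 17 genes rose: Aldh18a1 (1.08 ± 0.13), the arginine transporter gene Slc7a2 (0.87 ± 0.11), Srm (0.58 ± 0.09) and Odc1 (0.28 ± 0.06). Odc1 lost its call without ovalbumin 2 or 3 or any 1 of the PBS arrays (changes 0.26 to 0.30). Only 1 gene of this list rose without the squamous-carrying arrays.

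STAT6 binds a palindrome of TTC and GAA separated by 4 bases of any kind, so the RefSeq promoters of the risen genes were read for these letters (GRCm38.p6, from 250 bases before to 50 after the start of the gene, C57BL/6J sequence and not A/J). The motif reads the same on both strands. It was present in 5 of the 24 genes among the 30 largest rises that have a promoter in the table (20.8%), in 51 of 456 risen genes (11.2%), in 11 of 153 fallen genes (7.19%) and in 995 of 14368 measured genes (6.93%). The 5 were Cd209e, Retnla, Capn9, Ccl17 and Tfpi2. A match describes these letters and is not a binding site, and no match says only that the letters are not in this window. The promoters of Cd209e (chr8:3854237-3854536, minus strand) and Retnla (chr16:48842359-48842658, plus strand), which had the largest rises of the 5, are shown 5′ to 3′ with the motif in capitals. Counted from the gene start, it begins at −79 in Cd209e and at −145 in Retnla.
Cd209e: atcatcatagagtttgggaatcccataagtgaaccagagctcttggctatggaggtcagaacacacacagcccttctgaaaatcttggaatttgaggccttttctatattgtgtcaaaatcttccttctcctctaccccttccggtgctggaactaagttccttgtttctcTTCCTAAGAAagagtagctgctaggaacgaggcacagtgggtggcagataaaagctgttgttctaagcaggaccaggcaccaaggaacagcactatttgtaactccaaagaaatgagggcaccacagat
Retnla: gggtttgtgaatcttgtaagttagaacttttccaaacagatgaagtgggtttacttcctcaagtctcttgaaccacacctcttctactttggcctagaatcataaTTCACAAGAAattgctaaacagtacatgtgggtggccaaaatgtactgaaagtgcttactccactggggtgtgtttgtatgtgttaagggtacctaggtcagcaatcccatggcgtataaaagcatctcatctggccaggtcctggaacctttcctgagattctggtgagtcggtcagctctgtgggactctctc

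The type 2 cytokine genes Il13, Il4 and Il5 were weak on the arrays. Il13, at 3.91, 3.93 and 4.00 in ovalbumin lungs and 3.69, 3.30 and 3.55 in PBS lungs, rose by 0.43 ± 0.11 (adjusted p = 0.042), close to the level of the weakest 25% of values. Il4, at 3.26, 3.50 and 3.60 in ovalbumin lungs and 3.01, 3.15 and 2.92 in PBS lungs, also rose by 0.43 ± 0.11 (adjusted p = 0.0495). Neither group of values overlapped with the other, but Il13 lost its call without ovalbumin 1, 2 or 3 or PBS 2 or 3 (changes 0.32 to 0.45), and Il4 without ovalbumin 2 or 3 or any 1 of the PBS arrays (changes 0.35 to 0.49). Il5, the eosinophil growth factor, was at 3.63, 3.49 and 3.45 in ovalbumin lungs and at 3.15, 3.30 and 3.28 in PBS lungs (change 0.28 ± 0.09, adjusted p = 0.0993). Of 21 type 2 cytokine, receptor and signalling genes 4 rose, the other 2 being the receptor chain Csf2rb (0.90 ± 0.10) and the eotaxin receptor Ccr3 (0.40 ± 0.10). Ccr3 lost its call without ovalbumin 1 or 3 or any 1 of the PBS arrays (changes 0.32 to 0.45). The list count was 1 or 2 in the 6 fits that left out 1 array, and 0 without the squamous-carrying arrays.

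Among 10 alarmins and their receptors 1 was called. Il33, an epithelial alarmin that activates type 2 lymphoid cells, was at 10.14, 10.45 and 10.54 in ovalbumin lungs and at 8.77, 9.23 and 9.23 in PBS lungs (change 1.30 ± 0.18), and its call was kept in every alternative fit, among them the one without the squamous-carrying arrays. The alarmin genes Tslp and Il25 changed by −0.09 ± 0.13 and −0.03 ± 0.09 (adjusted p = 0.836 and 0.922), and Il25 lay in the weakest 25% of values.

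Eosinophil and chemokine genes were higher after ovalbumin. Ccl11 (Entrez Gene 20292), the eotaxin that binds Ccr3, was at 8.56, 8.40 and 8.68 in ovalbumin lungs, against 5.39, 5.14 and 5.01 in PBS lungs, a 10.3-fold difference (change 3.37 ± 0.22). Ccl24, a further eotaxin, was at 7.05, 7.54 and 7.62 in ovalbumin lungs and at 4.87, 4.78 and 4.91 in PBS lungs (change 2.55 ± 0.15). Cxcl3, a neutrophil attractant, was at 5.33, 6.22 and 5.63 in ovalbumin lungs and at 2.46, 2.45 and 2.38 in PBS lungs (change 3.30 ± 0.45). Its PBS values are among the weakest on the arrays. The chemokine genes Ccl8 and Ccl12 rose by 2.54 ± 0.28 and 2.24 ± 0.28. Cxcl9, an interferon-gamma-induced attractant of T cells, rose by 3.10 ± 0.17, while its other probe set was not called (0.61). Ccl24 and Ccl8 are counted in the macrophage list. Of 24 inflammatory chemokines 10 rose and none fell (median change 0.48, 4 without the squamous-carrying arrays). Cxcl9 was also the only riser among 20 genes of the interferon-gamma response and class I processing (median change 0.01, 1 riser also without the squamous-carrying arrays).

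Of 11 eosinophil genes 5 rose: Rnase2a, Csf2rb, Ccr3 and the granule protein genes Prg2 and Epx. Rnase2a is also counted in the alternatively activated macrophage list, and Csf2rb and Ccr3 in the type 2 list. The counts of these lists are therefore not separate evidence. Prg2 was at 4.13, 4.19 and 4.28 in ovalbumin lungs and at 3.13, 3.04 and 3.00 in PBS lungs (change 1.14 ± 0.15). Epx, eosinophil peroxidase, was at 3.51, 3.63 and 3.60 in ovalbumin lungs and at 3.16, 3.19 and 3.13 in PBS lungs (change 0.42 ± 0.08). These 2 levels are low although the groups do not overlap. In whole lung, more cells of a type and more RNA per cell cannot be told apart, here or in any other gene group. Only 1 eosinophil gene was called without the squamous-carrying arrays.

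Other leukocyte lists split. Of 20 dendritic cell genes 8 rose (median change 0.27), a count that was 8 in each fit that left out 1 A/J array and 5 without the squamous-carrying arrays. Ccl17, a chemokine for T helper 2 cells, was at 7.49, 8.33 and 8.33 in ovalbumin lungs and at 5.86, 5.47 and 5.30 in PBS lungs (change 2.50 ± 0.23). Ccl22, which shares the receptor of Ccl17, rose by 1.40 ± 0.10, and Batf3, a transcription factor of conventional dendritic cells, by 1.44 ± 0.11. Itgax, the integrin CD11c, was at 8.92, 9.00 and 9.14 in ovalbumin lungs and at 7.48, 7.77 and 7.69 in PBS lungs (change 1.37 ± 0.11). The dendritic cell list shares Ccl17, Ccl22 and Mgl2 with the alternatively activated macrophage list. It shares Itgax with the alveolar macrophage and complement lists. Of 18 monocyte and interstitial macrophage genes 6 rose, among them the complement genes C1qc (0.95 ± 0.13) and C1qb (0.93 ± 0.14), Cd68 (0.88 ± 0.11) and Adgre1 (0.76 ± 0.14), and 1 fell. The faller was Cx3cr1, the fractalkine receptor of patrolling monocytes, at 5.34, 5.19 and 4.78 in ovalbumin lungs and 5.87, 5.66 and 5.99 in PBS lungs (change −0.74 ± 0.13), whose other probe set was not called (−0.30). None of the 18 was called without the squamous-carrying arrays.

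Of 16 alveolar macrophage genes 4 rose (Chil3, Ctsk, Itgax and Mrc1, median change 0.08, 2 without the squamous-carrying arrays), and of 16 neutrophil genes 1, the iron-binding protein gene Lcn2 (1.44 ± 0.15), 1 also without the squamous-carrying arrays. In the alveolar macrophage list 6 of 16 changes lay below 0, down to −1.94, and in the neutrophil list 9 of 16, down to −0.88. The neutrophil median was −0.06, and no fall was called in either list. Without ovalbumin 1, 1 alveolar macrophage gene fell. With the squamous, skeletal muscle and liver levels as covariates 1 gene fell in each of these lists. Lcn2 is also counted in the acute phase and glucocorticoid-responsive lists. No call was made among 14 mast cell and basophil, 17 T cell or 10 MHC class II genes. The largest changes there were in the mast cell genes Hdc (0.27 ± 0.08, adjusted p = 0.105) and Cma1 (−0.26 ± 0.33, adjusted p = 0.805), and in Cd2 of T cells (0.45 ± 0.13, adjusted p = 0.0827). H2-Ob, a class II chain of B cells, was at 6.53, 5.87 and 6.17 in ovalbumin lungs and at 6.95, 7.13 and 6.57 in PBS lungs (change −0.69 ± 0.21, adjusted p = 0.0922). The activated T cell genes Tnfrsf9 (1.18 ± 0.10) and Batf (0.58 ± 0.10) rose, 2 of 18 in their list and 1 without the squamous-carrying arrays. Of 19 NK and cytotoxic genes only the granzyme gene Gzma fell (−0.51 ± 0.13), a call lost without ovalbumin 2 or 3 or PBS 1 or 2 (changes −0.49 to −0.43) and without the squamous-carrying arrays.

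B cell genes had 1 fall and no rise among 16 (median change −0.20, 14 changes below 0). Cr2, the complement receptor CD21, was at 4.59, 4.18 and 4.42 in ovalbumin lungs and at 5.32, 5.41 and 4.97 in PBS lungs (change −0.84 ± 0.18). It lost its call without ovalbumin 2 or 3 or PBS 1 or 2 (changes −0.85 to −0.73). The mean level of the 16 genes was 6.95, 5.98 and 6.62 on the ovalbumin arrays and 6.79, 6.88 and 6.49 on the PBS arrays, so the groups overlapped and ovalbumin 2 was the lowest. Of 14 plasma cell genes Irf4 alone was called (1.33 ± 0.29, lost without ovalbumin 1 or 3 or PBS 3, changes 1.16 to 1.25). No B cell or plasma cell gene was called without the squamous-carrying arrays.

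Some genes of cytokine signalling feedback and transcription rose. Cish, an inhibitor induced by STAT5, was at 8.45, 8.52 and 8.53 in ovalbumin lungs and at 7.69, 7.11 and 6.93 in PBS lungs (change 1.26 ± 0.15). Of 22 genes of JAK-STAT feedback and transcription 8 rose and none fell (median change 0.27), and 2 rose without the squamous-carrying arrays. Nfil3, a repressor induced by interleukins, rose by 0.90 ± 0.15. Batf3, Irf4 and Batf, named above with other lists, are also among the 8. Socs3, an inhibitor of interleukin-6 signalling, changed by 0.91 ± 0.21 and lost its call without any 1 of the 6 arrays (changes 0.80 to 0.99). Among 25 immediate early genes Egr2 (1.35 ± 0.13), Atf3 (0.90 ± 0.17), Klf4 (0.68 ± 0.11), Myc (0.60 ± 0.14) and Fosl2 (0.36 ± 0.08) rose and Gadd45b fell by 0.40, with a list median of 0.03. The risers numbered 3 without ovalbumin 3, PBS 2 or PBS 3, and 1 without the squamous-carrying arrays. A fall was called in 2 genes without ovalbumin 2, and in 0 without ovalbumin 1, ovalbumin 3, PBS 1 or the squamous-carrying arrays. Myc lost its call without ovalbumin 1 or 3 or PBS 2 or 3 (changes 0.48 to 0.62). Of 24 type I interferon-stimulated genes Mx1 rose by 0.75 ± 0.13 and Ifit3 fell by 0.36, a call lost without ovalbumin 1 or 3 or PBS 2 or 3 (changes −0.37 to −0.31). No gene of that list was called without the squamous-carrying arrays.

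Acute phase, complement and matrix genes also rose. Saa3, an acute phase protein made in lung epithelium and macrophages, was at 7.95, 7.38 and 7.67 in ovalbumin lungs and at 6.44, 5.94 and 5.82 in PBS lungs (change 1.60 ± 0.22). The protease inhibitor gene Serpina3n rose by 1.51 ± 0.12 and with Lcn2 made 3 of 18 genes of that list, a count kept without the squamous-carrying arrays. Of 17 complement genes 7 rose, among them Cfb (1.01 ± 0.09) of the alternative pathway, and 1 fell. The faller was C5ar1, the anaphylatoxin receptor, at 4.83, 4.96 and 5.11 in ovalbumin lungs and 5.65, 5.81 and 5.47 in PBS lungs (change −0.68 ± 0.16). It lost its call without ovalbumin 1 or 2 or PBS 1 or 2 (changes −0.67 to −0.59), and its other probe set was not called (−0.29). Only 1 complement gene rose and 0 fell without the squamous-carrying arrays.

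Timp1, the inhibitor of matrix metalloproteinases, was at 8.82, 8.85 and 9.11 in ovalbumin lungs and at 6.07, 6.18 and 6.04 in PBS lungs, a 7.12-fold difference (change 2.83 ± 0.15). Mmp12, macrophage elastase, was at 7.79, 7.71 and 7.96 in ovalbumin lungs and at 5.32, 5.39 and 5.08 in PBS lungs (change 2.56 ± 0.29). With the cysteine protease gene Ctsk (1.57 ± 0.18) and Adam8 (1.31 ± 0.09) they led 8 risen genes of 24 matrix proteases and inhibitors, 4 without the squamous-carrying arrays. Of 27 matrix and remodelling genes 7 rose and none fell (median change 0.19), led by Thbs1, thrombospondin 1 (1.51 ± 0.20), Tnc, tenascin C (1.07 ± 0.19) and the fibrillar collagen genes Col3a1 (0.91 ± 0.15) and Col1a1 (0.90 ± 0.15). Col3a1 was at 12.15, 11.87 and 12.28 in ovalbumin lungs and at 11.20, 11.17 and 11.21 in PBS lungs. Postn, periostin, a matrix protein induced by interleukin-13 in airway cells, changed by 0.10 ± 0.07 (10.48, 10.45 and 10.49 in ovalbumin lungs, against 10.34, 10.31 and 10.48 in PBS lungs, adjusted p = 0.598). The groups overlapped for Postn. Only 1 matrix gene was called without the squamous-carrying arrays.

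Of 19 smooth muscle and pericyte genes 8 rose (median change 0.29). Actg2, enteric smooth muscle actin, was at 9.15, 9.00 and 9.10 in ovalbumin lungs and at 7.91, 7.84 and 7.70 in PBS lungs (change 1.27 ± 0.13). Acta2, alpha smooth muscle actin, was at 11.98, 12.03 and 11.98 in ovalbumin lungs and at 11.29, 11.33 and 11.32 in PBS lungs (change 0.68 ± 0.09), while neither of its other 2 probe sets was called (0.19 and 0.52). Tpm2 and Tagln rose by 0.62 ± 0.11 and 0.57 ± 0.08. Ovalbumin 2, with Actg2 at 9.00 and Acta2 at 12.03, carried no squamous, skeletal muscle or cardiac muscle list. The part of these tissues in the rises was not tested. The count was 8 with the squamous list as a covariate and 1 without the squamous-carrying arrays.

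Most genes of dividing cells rose. Of 27 mitosis genes 23 rose and none fell (median change 0.89, all 27 changes above 0), and of 30 genes of DNA replication and S phase 19 rose (median change 0.46). Top2a (Entrez Gene 21973), the topoisomerase of chromosome segregation, was at 7.52, 6.84 and 7.47 in ovalbumin lungs and at 5.03, 5.29 and 5.20 in PBS lungs (change 2.11 ± 0.16), though neither of its other 2 probe sets was called (−0.12 and 0.58). Birc5, the survivin subunit of the chromosomal passenger complex, was at 6.52, 5.73 and 6.43 in ovalbumin lungs and at 4.14, 4.06 and 4.14 in PBS lungs (change 2.11 ± 0.20). Ovalbumin 2 was the lowest of the ovalbumin arrays in both genes and lay above every PBS array. Cdk1, the kinase that starts mitosis, rose by 1.62 ± 0.12, Mki67, the proliferation antigen, by 1.58 ± 0.13, the ribonucleotide reductase subunit gene Rrm2 by 1.84 ± 0.15 and Uhrf1, which keeps DNA methylation through replication, by 1.70 ± 0.13. The mitosis count ran from 17 (without ovalbumin 3) to 26 (without ovalbumin 2) in the fits that left out 1 array and was 6 without the squamous-carrying arrays, and the S phase count ran from 12 (without ovalbumin 3) to 18 and was 2 without those arrays.

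Promoters of mitotic genes are known to share the cell cycle homology region, whose core is TTTGAA, often near the gene start. On either strand the letters TTTGAA were present in the promoters of 18 of the 23 mitosis genes that have one in the RefSeq table (78.3%), of 15 of 19 that rose (78.9%), and of 2250 of 14368 measured genes (15.7%). The motifs were searched one at a time, and matches of both could overlap. Top2a (chr11:99024140-99024439, minus strand) and Cdk1 (chr10:69352863-69353162, minus strand) are shown 5′ to 3′ with TTTGAA, or its reverse complement TTCAAA, in capitals. Counted from the gene start, the matches begin at −179 and −23 in Top2a, and at −71 and −15 in Cdk1.
Top2a: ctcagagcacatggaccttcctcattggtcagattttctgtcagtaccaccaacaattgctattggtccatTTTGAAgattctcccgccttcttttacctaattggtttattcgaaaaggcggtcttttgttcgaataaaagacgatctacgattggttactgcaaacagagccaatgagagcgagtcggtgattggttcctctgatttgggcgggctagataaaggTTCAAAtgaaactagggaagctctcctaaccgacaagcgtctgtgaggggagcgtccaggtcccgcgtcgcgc
Cdk1: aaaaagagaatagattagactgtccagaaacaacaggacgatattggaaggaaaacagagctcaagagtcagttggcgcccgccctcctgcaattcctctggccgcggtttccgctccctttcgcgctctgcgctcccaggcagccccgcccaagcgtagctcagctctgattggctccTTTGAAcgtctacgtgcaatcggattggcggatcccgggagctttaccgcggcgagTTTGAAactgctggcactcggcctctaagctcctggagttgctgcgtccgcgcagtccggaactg

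In the secretory pathway 7 of 26 genes of endoplasmic reticulum folding and stress rose and 2 fell (median change 0.29). The chaperone-complex gene Sdf2l1 rose by 0.91 ± 0.19, Manf, a secreted stress protein, by 0.57 ± 0.09 and the translocon subunit gene Sec61b by 0.50 ± 0.08. Manf was at 10.19, 10.19 and 10.15 in ovalbumin lungs and at 9.66, 9.56 and 9.60 in PBS lungs. The 2 that fell, Trib3 (−0.47 ± 0.10) and Ddit3 (−0.28 ± 0.07), belong to the apoptotic branch of the stress response, and a second probe set of each was not called (−0.20 and 0.06). Sdf2l1 lost its call without ovalbumin 1 or PBS 2 or 3 (changes 0.86 to 0.89), and the list had 4 risers without ovalbumin 1, PBS 1, PBS 2 or PBS 3. Of its 2 fallers 1 was called without ovalbumin 2, PBS 1 or PBS 3, and 0 without ovalbumin 1, ovalbumin 3 or PBS 2. Only 1 gene of the list rose and 0 fell without the squamous-carrying arrays.

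Calls in some metabolic and lipid mediator lists are given next, to be read beside the 3.2% of all genes that rose. Of 22 eicosanoid genes 3 rose: the prostaglandin receptor gene Ptger4, at 7.72, 7.77 and 8.01 in ovalbumin lungs and 6.75, 6.77 and 6.59 in PBS lungs (change 1.13 ± 0.12), the thromboxane synthase gene Tbxas1 (0.68 ± 0.12) and the prostaglandin E synthase gene Ptges (0.58 ± 0.15). Ptges lost its call without any 1 of the 6 arrays. Of 23 genes of hypoxia and glycolysis Slc2a1, a glucose transporter (0.42 ± 0.08), and Pgam1 (0.24 ± 0.06) rose, and of 26 genes of lipid and sterol synthesis Cyp51 (0.63 ± 0.13). Without PBS 2, and without PBS 3, neither glycolysis gene was called, and Cyp51 was not called without ovalbumin 3, PBS 1 or PBS 2. None of 9 erythroid genes was called. Without the squamous-carrying arrays no gene of the eicosanoid, glycolysis or sterol lists was called.

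**Figure D3:**
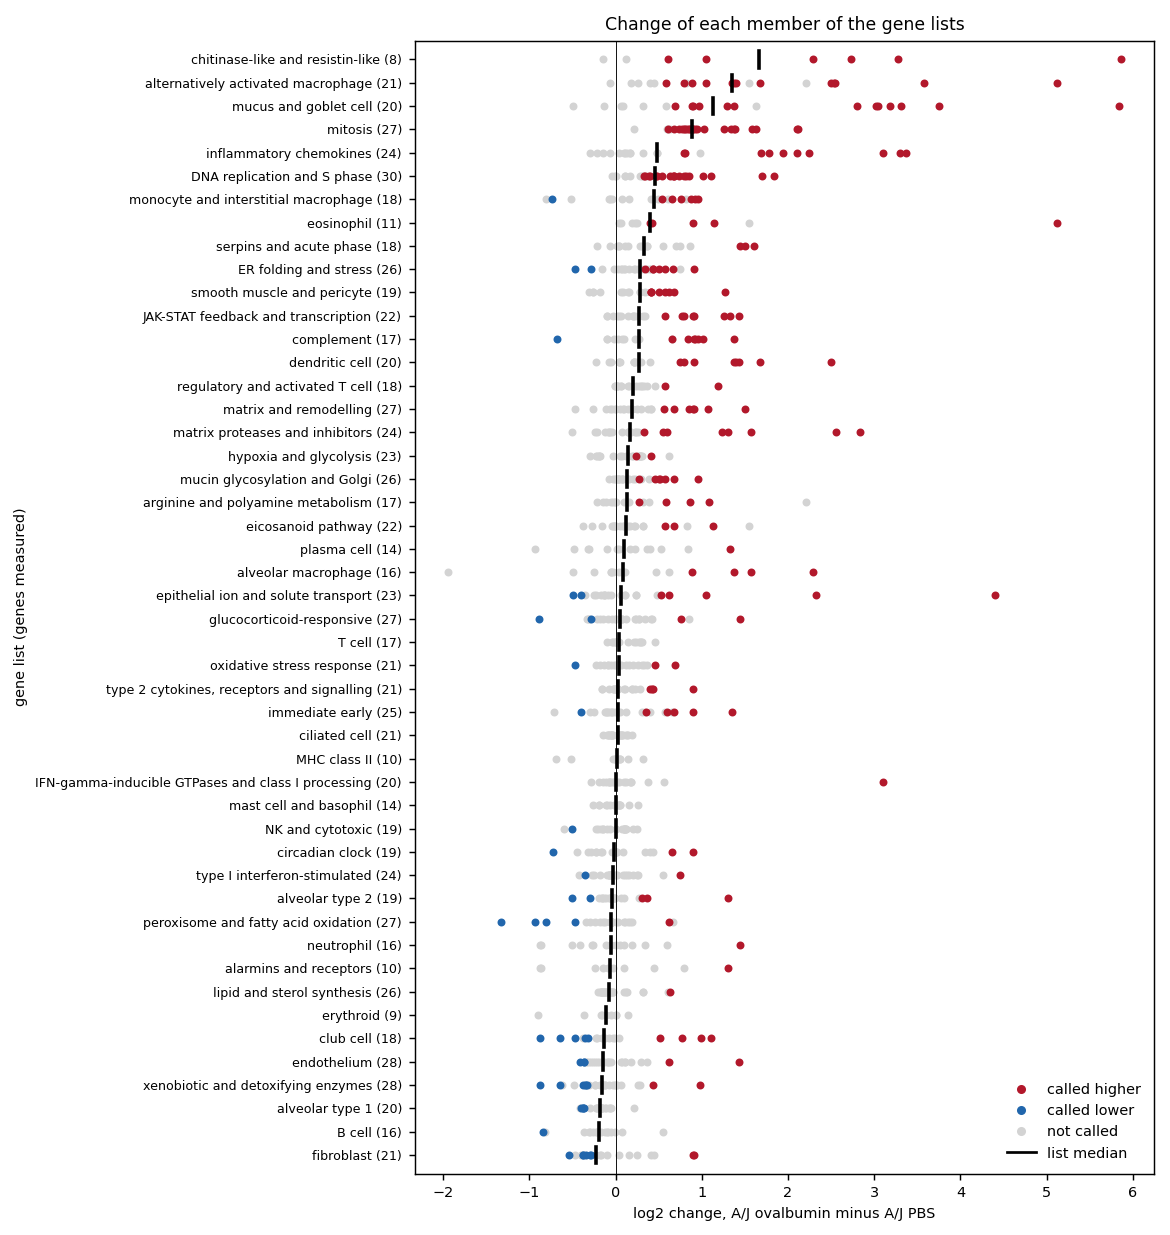
Change of each measured member of 48 gene lists (log2, ovalbumin minus PBS, horizontal axis), 1 list a line with its number of measured genes, ordered by the list median (black tick). Red points rose, blue points fell and grey points were not called. The median is 1.67 for the chitinase-like list and −0.23 for the fibroblast list at the bottom.

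The falls were smaller than the rises in their median, given above. The 30 largest ran from −1.33 to −0.54, and in each of them the 3 ovalbumin values lay below all 3 PBS values, as the rule for naming asked. Bex2, a small adaptor-like protein studied mainly in neurons, was at 6.79, 6.67 and 6.57 in ovalbumin lungs and at 8.12, 7.53 and 7.79 in PBS lungs (change −1.14 ± 0.13, limma adjusted p = 6.09e-05). Cpm, a membrane carboxypeptidase found on alveolar epithelium, was at 8.55, 8.72 and 8.66 in ovalbumin lungs and at 9.67, 9.39 and 9.40 in PBS lungs (change −0.84 ± 0.09, adjusted p = 1.79e-05), and its other probe set fell as much (−0.84). Depp1, a target of FOXO transcription factors and of progesterone, was at 8.80, 8.66 and 8.34 in ovalbumin lungs and at 9.47, 9.62 and 9.37 in PBS lungs (change −0.88 ± 0.15), with −1.20 in its other probe set, also called.

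Lipid oxidation genes were at the head of the falls. Acaa1b (Entrez Gene 235674), a peroxisomal thiolase, was at 5.61, 5.24 and 5.34 in ovalbumin lungs and at 6.69, 6.69 and 6.78 in PBS lungs (change −1.33 ± 0.29, adjusted p = 0.0159). It lost its call without ovalbumin 3 or any 1 of the PBS arrays (changes −1.34 to −1.29, adjusted p up to 0.0676). Acoxl, an acyl-CoA oxidase-like gene, was at 6.92, 7.04 and 6.84 in ovalbumin lungs and at 7.98, 7.83 and 7.78 in PBS lungs (change −0.93 ± 0.09, adjusted p = 1.53e-05). Acot1, an acyl-CoA thioesterase, changed by −0.80 ± 0.17 and lost its call without ovalbumin 1 or PBS 1 (changes −0.75 and −0.74). Cat, catalase, the peroxisomal enzyme that breaks down hydrogen peroxide, was at 9.94, 10.06 and 10.03 in ovalbumin lungs and at 10.51, 10.46 and 10.49 in PBS lungs (change −0.47 ± 0.07), and its other probe set fell by 0.42. Against these 4 falls among 27 genes of peroxisomes and fatty acid oxidation 1 rose, the peroxisomal transporter gene Abcd2 (0.62 ± 0.11, none of its other 3 probe sets called), and the list median was −0.05. The list had 2 to 4 falls in the fits that left out 1 array (2 without PBS 1), and no gene of it was called either way without the squamous-carrying arrays.

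Club cell and detoxifying genes moved both ways. Pon1, paraoxonase, an antioxidant esterase, was at 8.51, 9.01 and 8.74 in ovalbumin lungs and at 9.72, 9.57 and 9.59 in PBS lungs (change −0.87 ± 0.13). Sult1d1, a sulfotransferase, changed by −0.64 ± 0.15, lost its call without ovalbumin 1 or 3 or any 1 of the PBS arrays (changes −0.68 to −0.53), and had a second called probe set at −0.85. Of 18 club cell genes 4 rose and 5 fell (median change −0.14). The risers were Reg3g, an antibacterial lectin (1.11 ± 0.13), Chad (0.99 ± 0.13), Lypd2 (0.78 ± 0.12) and the claudin gene Cldn10 (0.52 ± 0.10). The other fallers were Nupr1 (−0.46 ± 0.08), the naphthalene-metabolizing cytochrome gene Cyp2f2 (−0.36 ± 0.07) and the secretoglobin gene Scgb3a2 (−0.31 ± 0.08). The defining secretoglobin Scgb1a1 was at 13.72, 13.76 and 13.72 in ovalbumin lungs and at 13.76, 13.76 and 13.75 in PBS lungs, near the top of the scale (change −0.03 ± 0.05, adjusted p = 0.888). The fallers numbered 2 without ovalbumin 1, and 3 each without ovalbumin 3, PBS 1, PBS 2 or PBS 3. Only 1 club cell gene rose and 0 fell without the squamous-carrying arrays.

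Of 28 xenobiotic-metabolizing genes 6 fell and 2 rose (median change −0.16, 21 changes below 0). The 2 that rose were the glutathione transferase gene Gsto1, at 10.10, 10.11 and 10.10 in ovalbumin lungs and 9.17, 9.09 and 9.11 in PBS lungs (change 0.98 ± 0.10), and the retinal dehydrogenase-like gene Aldh1a7 (0.43 ± 0.07). In the oxidative stress list the glutathione genes Gclc (0.69 ± 0.11) and Gsr (0.45 ± 0.06) rose while Cat fell, 3 calls among 21 genes and none without the squamous-carrying arrays. The count of xenobiotic falls was 2 without ovalbumin 1, 3 without PBS 2 or PBS 3, and 0 without the squamous-carrying arrays, where 1 gene rose.

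Calls in the lists of alveolar cells are to be read beside the 3.2% of all genes that rose and the 1.18% that fell. Among 20 alveolar type 1 genes 4 fell and none rose (median change −0.18, 19 changes below 0). They were Scnn1g, Limch1 (−0.38 ± 0.09), Col4a4 (−0.37 ± 0.10) and Rtkn2 (−0.37 ± 0.09). All 4 calls were lost without ovalbumin 1, and without ovalbumin 3 as well, and between 1 and 2 were kept without each other array, and 0 without the squamous-carrying arrays. Limch1 was at 10.86, 11.19 and 11.08 in ovalbumin lungs and at 11.48, 11.39 and 11.40 in PBS lungs, without overlap. Among 19 alveolar type 2 genes Il33, Sftpd (0.37 ± 0.09) and Sftpa1 (0.30 ± 0.06) rose, and Lpcat1 (−0.51 ± 0.07) and Abca3 (−0.29 ± 0.07), which handle surfactant lipids, fell. The surfactant protein gene Sftpc was at 13.80, 13.76 and 13.80 in ovalbumin lungs and at 13.81, 13.82 and 13.79 in PBS lungs (change −0.02 ± 0.05, adjusted p = 0.934). Sftpd lost its call without ovalbumin 1, 2 or 3 or PBS 1 (changes 0.26 to 0.37). Of the type 2 list 1 gene fell in each fit without ovalbumin 1, 2 or 3 or PBS 2 or 3, and 1 rose and 0 fell without the squamous-carrying arrays.

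The endothelial list showed 2 rises and 3 falls among 28 genes (median change −0.14). Selp, P-selectin, the adhesion molecule of activated endothelium and platelets, was at 7.16, 6.83 and 7.16 in ovalbumin lungs and at 6.04, 5.53 and 5.29 in PBS lungs (change 1.43 ± 0.24). Vcam1, which binds eosinophils and lymphocytes, rose by 0.62 ± 0.10. The angiopoietin receptor gene Tek (−0.41 ± 0.10), the kinase gene Bmx (−0.37 ± 0.08) and the apelin receptor gene Aplnr (−0.37 ± 0.10) fell, and none of these 3 calls was kept without ovalbumin 1 or without PBS 1. The fallers numbered 1 each without ovalbumin 3, PBS 2 or PBS 3, and no endothelial gene was called without the squamous-carrying arrays. Of 21 fibroblast genes 6 fell and 2 rose (median change −0.23). The risers were Col1a1 and Col3a1, and the largest fall was in Scube2, a secreted hedgehog carrier, at 8.14, 8.24 and 8.28 in ovalbumin lungs and 8.63, 8.83 and 8.82 in PBS lungs (change −0.54 ± 0.08). The count of fallers was 2 without ovalbumin 1 or without PBS 2, and 3 without ovalbumin 3 or PBS 3, and no fibroblast gene was called without the squamous-carrying arrays. Of 21 ciliated cell genes none was called (changes from −0.15 to 0.19). Of 12 mesothelium genes Gpm6a fell (−0.50 ± 0.09, not called without the squamous-carrying arrays), and the list mean was lower on all 3 ovalbumin arrays (7.39, 7.28 and 7.14) than on the PBS arrays (7.46, 7.55 and 7.41, exact two-sided permutation p = 0.1, the smallest possible). How far the amount of pleural lining in each lung sample bears on this was not tested.

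Among the other large falls, Gria1, an AMPA glutamate receptor subunit (−0.80 ± 0.13), Nrn1, the growth factor neuritin (−0.73 ± 0.10), Cep70, a centrosomal protein (−0.69 ± 0.10), Fgfbp1, a carrier of fibroblast growth factors (−0.64 ± 0.11), St6galnac3, a sialyltransferase (−0.65 ± 0.12), Rgs2, a regulator of G protein signalling (−0.59 ± 0.10), and Ralgps2 (−0.55 ± 0.11) were called in each fit that left out 1 A/J array. Nrn1 was at 6.95, 6.89 and 6.92 in ovalbumin lungs and at 7.74, 7.63 and 7.58 in PBS lungs. Rgs2 was at 8.70, 8.73 and 8.47 in ovalbumin lungs and at 9.21, 9.29 and 9.18 in PBS lungs, and 2 of its other 3 probe sets fell too. Neither of the other 2 probe sets of Ralgps2 was called (−0.16 and −0.09). The other probe set of Cep70 was not called (−0.14), nor was that of Gria1 (−0.74), and 1 of the other 2 of St6galnac3 fell.

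Nr1d1, the clock repressor REV-ERB alpha, was at 7.79, 7.66 and 7.15 in ovalbumin lungs and at 8.24, 8.35 and 8.20 in PBS lungs (change −0.73 ± 0.12). Of 19 clock genes it alone fell, and Nfil3 and Bhlhe40 (0.66 ± 0.08) rose (list median −0.02), and none was called without the squamous-carrying arrays. The labels give no hour of killing, so a difference in the time of day was not tested. In the glucocorticoid-responsive list Depp1 and the receptor gene Nr3c1 (−0.28 ± 0.07) fell and Lcn2 and Mt2 (0.76 ± 0.18) rose among 27 genes. These few calls are to be read beside the 3.2% of all genes that rose and the 1.18% that fell. Nr3c1 lost its call without ovalbumin 1, 2 or 3 or PBS 2 or 3 (changes −0.31 to −0.25), and 1 of its other 5 probe sets was called lower. Mt2, a metallothionein, lost its call without ovalbumin 1 or 3 or PBS 2 or 3 (changes 0.69 to 0.78). Only 1 gene of this list rose and 0 fell without the squamous-carrying arrays.

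In several falls 1 ovalbumin array lay well below the other 2. Mfap4, an elastic fibre protein, was at 10.63, 10.30 and 9.71 in ovalbumin lungs and at 10.72, 10.94 and 11.21 in PBS lungs (change −0.74 ± 0.19). Cdc42bpg, a kinase, was at 9.32, 9.73 and 8.67 in ovalbumin lungs and averaged 9.94 ± 0.06 in PBS lungs (SD, n = 3) (change −0.70 ± 0.17). Tbx3, a transcription factor of lung mesenchyme, was at 8.49, 8.66 and 7.90 in ovalbumin lungs and at 8.81, 9.00 and 8.85 in PBS lungs (change −0.54 ± 0.14). In all 3 genes ovalbumin 3 was the lowest array, and without it their changes were −0.49, −0.42 and −0.32, none called. The calls of Tubb1 (−0.61 ± 0.15), Tnik (−0.59 ± 0.14), Lyrm9 (−0.58 ± 0.15), Adarb1 (−0.58 ± 0.13), Scn3a (−0.57 ± 0.14), Vipr2 (−0.56 ± 0.15) and Glb1l2 (−0.55 ± 0.13) were each lost without 3 to 6 of the 6 arrays. Their changes in those fits ran from −0.68 to −0.43. In Tnik, Lyrm9, Adarb1, Scn3a and Tbx3 no other probe set was called, and those of Tnik lay between −0.08 and 0.09.

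**Figure D4:**
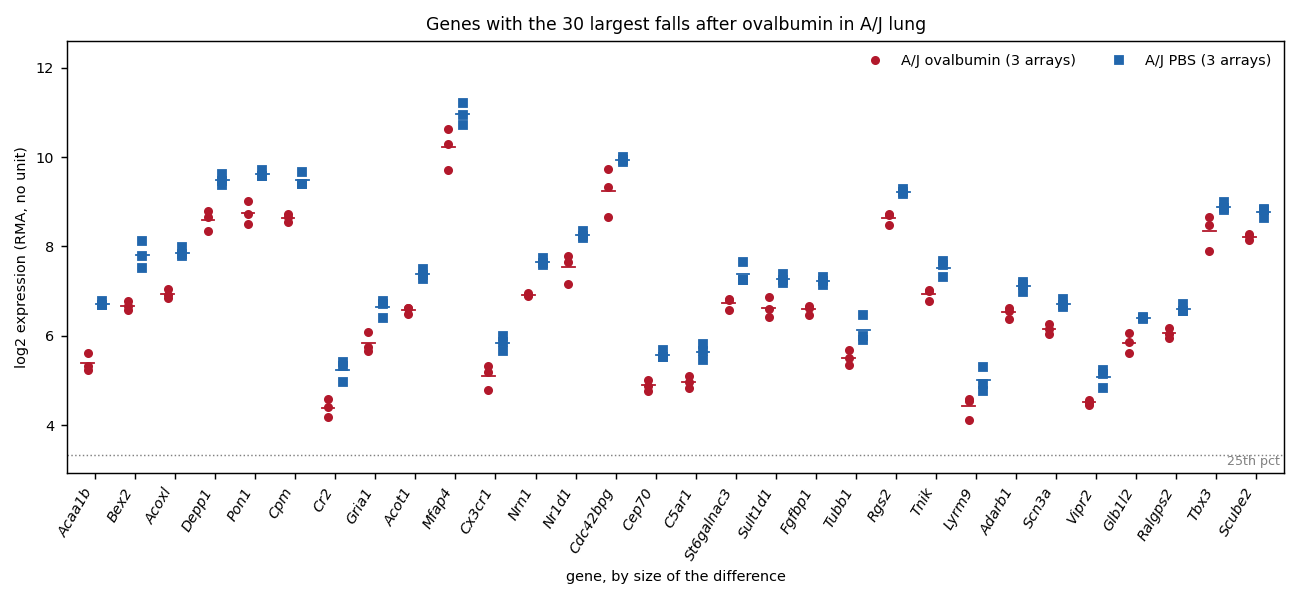
Log2 expression (vertical axis) of the 30 genes with the largest falls (horizontal axis, by size) on the 3 ovalbumin arrays (circles) and the 3 PBS arrays (squares), with group means as short lines. The ovalbumin values lie below all PBS values in each gene, with the widest spread in Mfap4 and Cdc42bpg, where ovalbumin 3 is lowest at 9.71 and 8.67.

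The transcripts of other tissues were set beside these falls. With the mean squamous level as a covariate 200 genes fell, 178 of them also among the 215, and with the squamous, skeletal muscle and liver levels together 152 fell, 120 of them among the 215. For the rises the shared numbers were 543 of 590 and 502 of 570. Of the 30 largest rises 30 were called under either covariate fit and 27 without the squamous-carrying arrays (all but Agr2, Cxcl3 and Ccl12). Of the 30 largest falls 27 were called with the squamous covariate, 26 with 3 covariates and 0 without the squamous-carrying arrays. In that fit all 215 fallen genes still changed below 0, a direction that the shared arrays fix in part. The part of these tissues in the falls beyond these values was not tested.

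The ovalbumin effect was then compared between A/J and C57BL/6 by an interaction term, and 21 of 45037 probe sets (0.0466%) and 11 of 18194 genes (0.0605%) passed. Itln1 (Entrez Gene 16429), the lectin intelectin, was at 9.65, 9.29 and 9.52 in A/J ovalbumin lungs and at 5.68, 6.01 and 5.49 in A/J PBS lungs. In C57BL/6 it averaged 4.58 ± 0.24 in ovalbumin and 3.81 ± 0.02 in PBS lungs (SD, n = 3 each), so the A/J change of 3.76 exceeded the C57BL/6 change of 0.77 by 2.98 ± 0.29 (limma adjusted p = 0.000133). Intelectin genes differ in number between mouse strains, and which copy the probe set reads was not tested. Guca2a, the peptide guanylin, changed by 1.76 in A/J and by −0.08 in C57BL/6 (difference 1.84 ± 0.21), and Wfdc17, a macrophage-secreted inhibitor-like protein, by 1.70 in A/J and 0.27 in C57BL/6 (difference 1.43 ± 0.16).

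The difference in Chil3 (1.18 ± 0.16) came with unequal PBS levels. It averaged 12.33 ± 0.08 in A/J ovalbumin and 10.04 ± 0.28 in A/J PBS lungs, and 12.43 ± 0.13 in C57BL/6 ovalbumin and 11.32 ± 0.09 in C57BL/6 PBS lungs (SD, n = 3 each). The ovalbumin levels were thus close, and the PBS level was lower in A/J. Capn9 (difference 1.29 ± 0.22), Fxyd4 (1.50 ± 0.25) and Ccl22 (0.87 ± 0.15) rose in both strains and more in A/J. Those 3 lost the call on leaving out 1 A/J array: Capn9 without ovalbumin 1 or 3 or PBS 1 or 2 (differences 1.22 to 1.26), Fxyd4 without ovalbumin 1 or 3 or any 1 of the PBS arrays (1.41 to 1.52), and Ccl22 without ovalbumin 2 or 3 or any 1 of the PBS arrays (0.77 to 0.90).

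In the remaining 4 genes the change passed the test in C57BL/6 and not in A/J. Nnt, the mitochondrial transhydrogenase, averaged 8.42 ± 0.08 in A/J ovalbumin and 8.46 ± 0.06 in A/J PBS lungs, and 8.40 ± 0.05 in C57BL/6 ovalbumin and 7.07 ± 0.19 in C57BL/6 PBS lungs (SD, n = 3 each, difference −1.38 ± 0.13). The C57BL/6 PBS group alone stood apart. Wdfy1 (difference −1.13 ± 0.13) and Efcab7 (−0.93 ± 0.13) had the same order, with A/J ovalbumin, A/J PBS and C57BL/6 ovalbumin means of 7.53, 7.60 and 7.36 against 6.31 for C57BL/6 PBS in Wdfy1, and of 5.12, 5.23 and 5.19 against 4.38 in Efcab7. Nnt is known to be partly deleted in the substrain C57BL/6J and not in others, and the labels name no substrain. Substrain and treatment therefore cannot be told apart in these genes. If the C57BL/6 groups differ in substrain, the same holds for the other strain differences given here. Lrmda changed by 0.27 ± 0.16 in A/J, which did not pass the test, and fell by 1.20 in C57BL/6 (difference 1.46 ± 0.22, not called without ovalbumin 3 or PBS 1, with differences of 1.41 and 1.38). Without the squamous-carrying arrays none of the 11 was called, with a difference of 2.74 for Itln1. In the other genes named here no difference between the strains was called, which does not show that their effects were equal.

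**Figure D5:**
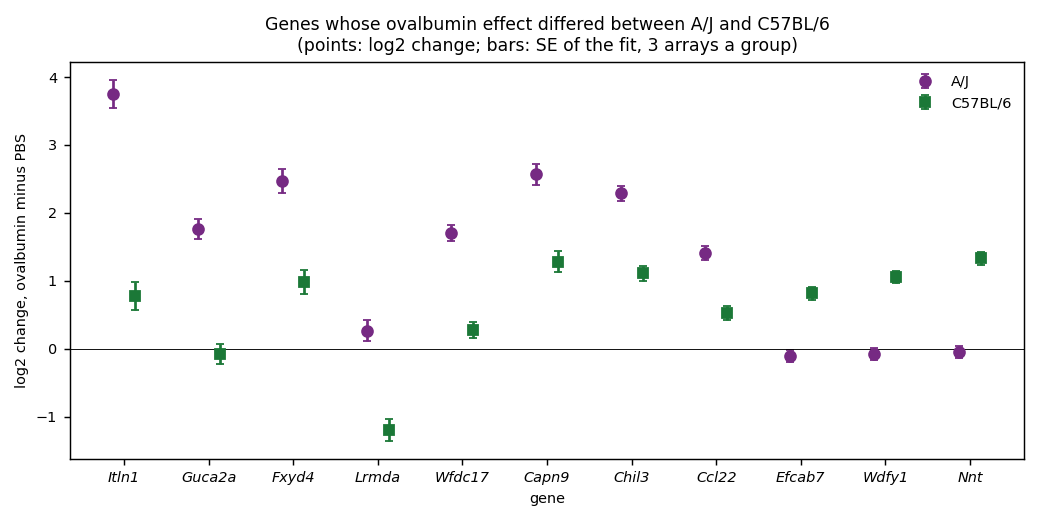
Change after ovalbumin (log2, ovalbumin minus PBS, vertical axis) in A/J (circles) and C57BL/6 (squares) for the 11 genes whose change differed between the strains, ordered by the difference (horizontal axis). Bars are the SE of the fit with 3 arrays a group. Itln1 differs most, with 3.76 in A/J and 0.77 in C57BL/6.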

How the data were processed

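Total RNA of whole lungs was labelled with biotin and measured on expression arrays, 1 array a mouse lung sample. The authors deposited log2 expression values made with RMA from the affy package, per the submitters' processing notes, whose versions are not given in the sources used here. RMA corrects background, quantile-normalizes the arrays together and summarizes probes, so it compresses changes of weak genes and assumes that the arrays share 1 distribution. The array medians ran from 4.77 to 4.80. Arrays give no read depth, and their number (3 a group) limits the precision.

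From the deposited values, 64 control probe sets were left out and 45037 went into a linear model (limma 3.58.1, R 4.3.3) of 6 group means over all 18 arrays (12 residual degrees of freedom), empirical Bayes moderation and Benjamini-Hochberg adjustment over all probe sets, with calls at an adjusted p under 0.05. The platform annotation named 1 gene for 34945 probe sets, several for 932 and none for 9160, and 34741 of the first had a RefSeq entry. Where several probe sets read a gene, the one of highest mean expression stands for it. The 57 gene lists have 1206 members, of which 1117 were measured. The members and lists were chosen with earlier results of these data known. Genes named are the 30 largest rises and 30 largest falls whose groups do not overlap, up to 4 called members of each list, and a fixed set of textbook genes of the model. Aqp1, Car2, Abca3, Aplnr, Ddit3, Trib3, Gadd45b, Fosl2, Cldn10, Scgb3a2, Cyp2f2 and Nupr1 were named after their values were seen, because their lists had few calls, and Guca2a, Wfdc17, Lrmda, Nnt, Wdfy1 and Efcab7 because their strain difference was called. The fit was tested on simulated data. Alternatives were leaving out each A/J array, other sets of arrays, filters, normalizations, limma settings, a replicate block and the levels of other tissues as covariates. The fit with 3 tissue levels was added after seeing the data. Promoters came from RefSeq (GRCm38.p6).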

Additional observations from a re-analysis of the deposited data

Results flagged for a closer look

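In 11 genes the ovalbumin effect differed between A/J and C57BL/6 by the interaction term of limma (Benjamini-Hochberg adjusted p under 0.05), each with 3 arrays a group. As A/J minus C57BL/6 on the log2 scale, the differences were 2.98 for Itln1, 1.84 for Guca2a, 1.50 for Fxyd4, 1.46 for Lrmda, 1.43 for Wfdc17, 1.29 for Capn9, 1.18 for Chil3 and 0.87 for Ccl22. They were −0.93 for Efcab7, −1.13 for Wdfy1 and −1.38 for Nnt. None of the 11 was called without the arrays that carry squamous transcripts.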

How the results depend on the processing

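Of the values of the 191 named genes under the alternatives, 3428 kept their side of the threshold. These include changes of sign in genes called neither in the main fit nor in the alternative, which were not counted apart. Another 380 kept the direction and lost the call, and 8 gained one. Among genes called in either fit 2 values changed sign. The 2 were Tnik (0.0855) and Nr3c1 (0.121), with the probe set of highest variance standing for the gene, where neither was called. With only the 6 arrays fitted, 744 probe sets were called (592 higher, 152 lower), or 381 genes higher and 69 lower. Without the arrays that carry squamous transcripts 120 probe sets were called (115 higher, 5 lower), 79 genes higher and 0 lower, and 3 probe sets differed between strains. That fit has 1 ovalbumin against 2 PBS arrays in A/J, so fewer samples. Leaving out 1 A/J array gave 680 to 1492 called probe sets (505 to 885 higher, 175 to 607 lower), 331 to 572 genes higher and 78 to 268 lower. Fewer tested features went with more falls: 774 probe sets and 386 genes fell among those with a mean of at least 5, and 738 and 369 among those at or above the array median on at least 3 arrays. The causes were not tested otherwise. With the replicate number as a block 548 genes rose and 190 fell, and 18 probe sets differed between strains. Same-numbered arrays correlated in their deviations with r of 0.357, 0.429 and −0.141, and differently numbered ones with r of −0.516 to 0.263. With 3 same-numbered pairs these values cannot show whether the numbers pair the samples. C57BL/6 arrays were not left out one at a time. The number of arrays and the lack of detection calls limit what weak genes can show.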
